A study of Mus musculus with 12 samples.

Results

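The mRNAs of G1 phase regulators were followed in polysomal and non-polysomal RNA of 3T3-L1 cells, a mouse fibroblast line that turns into adipocytes after hormonal induction. The genes were the D-type cyclins Ccnd1, Ccnd2 and Ccnd3, the E-type cyclins Ccne1 and Ccne2, the CDK inhibitors Cdkn1a, Cdkn1b and Cdkn1c and the pocket proteins Rbl1 and Rbl2. Every non-control probe whose transcript accession belonged to one of these 10 genes was taken, which gave 15 of 41174 probes and 9 genes. No probe was matched to Ccnd1, which was not analysed here. RNA was measured on 12 one-color arrays in 4 groups of 3 replicates. Confluent cells were harvested on day 0 without hormones (0 h) or after 6 h in the differentiation mixture, which held 0.5 mM isobutylmethylxanthine, 1 µM dexamethasone and 5 µg/ml insulin. The mixture also brought fetal in place of newborn bovine serum, so the effects of hormones and of serum cannot be told apart. Each lysate was run on a sucrose gradient, of which the light fractions 5 to 7 gave the non-polysomal pool and the heavy fractions 9 to 11 the polysomal one. Equal volumes of the fractions were pooled, and spike-in RNA was added for a fixed amount of test RNA. Levels are read here as levels per amount of RNA. Whether they stand for whole pools instead was not tested. Whole cultures were lysed, so fewer cells holding a transcript and less of it in each cell cannot be told apart.

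D-type cyclins bind CDK4 and CDK6, and E-type cyclins bind CDK2. Both kinds of complex phosphorylate the pocket proteins (pRB, p107 encoded by Rbl1 and p130 encoded by Rbl2), which then let go of E2F transcription factors, and the genes of S phase are transcribed. The CDK inhibitors p21 (Cdkn1a), p27 (Cdkn1b) and p57 (Cdkn1c) bind the cyclin complexes and hold cells in G1. Growth-arrested 3T3-L1 cells are known to re-enter the cycle after induction, in a phase called mitotic clonal expansion that comes before terminal differentiation. In resting cells p130 and p27 proteins are typically abundant, while Rbl1 is itself a known E2F target.

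On the 12 arrays between 55.7% and 60.8% of the probes lay well above background. All 10 fibroblast and preadipocyte markers were well above background on 12 of 12 arrays, as were 5 of 8 markers of mature adipocytes, 2 of 5 measured leukocyte markers, 1 of 4 endothelial and 1 of 4 epithelial ones. Ptprc, which defines leukocytes, and Pecam1 and Epcam were at or near background. The leukocyte markers well above it on every array were Cd3e and Csf1r, the endothelial one Vwf and the epithelial one Krt8. Csf1r, Vwf and Krt8 each also had a probe that was not. Summed over the fibroblast markers, the scaled signal ran from 1085000 to 1178000 on the 0 h polysomal arrays. On the 6 h polysomal arrays it ran from 1650000 to 1677000. In non-polysomal RNA the sum was lower at 6 h, at 604900 to 621000 against 660100 to 687400 at 0 h. The sum of the mature adipocyte markers was also higher in polysomal RNA at 6 h, at 204800 to 214100 against 127500 to 149800. The part of these sums in the results below was not tested. Arrays were scaled on 10 spike-in transcripts. On the 6 h polysomal arrays the 5 dimmer of them read 0.83 lower (log2) than on the other arrays, against 0.09 lower for the 5 brighter ones. With this scaling the median of all probes moved by 0.54 in polysomal and by 0.04 in non-polysomal RNA from 0 h to 6 h (log2), so changes are also given relative to these medians.

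A probe was called when limma gave a Benjamini-Hochberg adjusted p below 0.05 over all probes and the difference was more than 2-fold, which is 1 on the log2 scale. In polysomal RNA 4 of the 15 probes were called higher at 6 h than at 0 h, for Ccnd3, Ccne2 (both probes) and Cdkn1c. That is 26.7% of the probes, beside 19.2% of all probes. Called lower were 2 probes, for Rbl1 and Cdkn1b, or 13.3% beside 5.01% of all probes. Under 75th percentile scaling 2 probes were called higher and 5 lower, beside 3640 and 4014 of all probes, where the spike-in scaling had 7891 and 2061. Non-polysomal RNA showed 1 probe called higher, for Ccnd3, which is 6.67% beside 8.09% of all probes. There 4 probes were called lower, for Cdkn1b (both probes), Cdkn1c and Rbl1, which is 26.7% beside 8.14%. The median change of the 15 probes was 0.30 in polysomal and -0.73 in non-polysomal RNA (log2), and 8 of them lay below the median of all probes in the former and 12 in the latter. Groups did not overlap between 0 h and 6 h for 13 of 15 probes in polysomal RNA, beside 72.2% of all probes, and 14 of 15 in non-polysomal RNA, beside 47.9%.

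**Figure D1:**
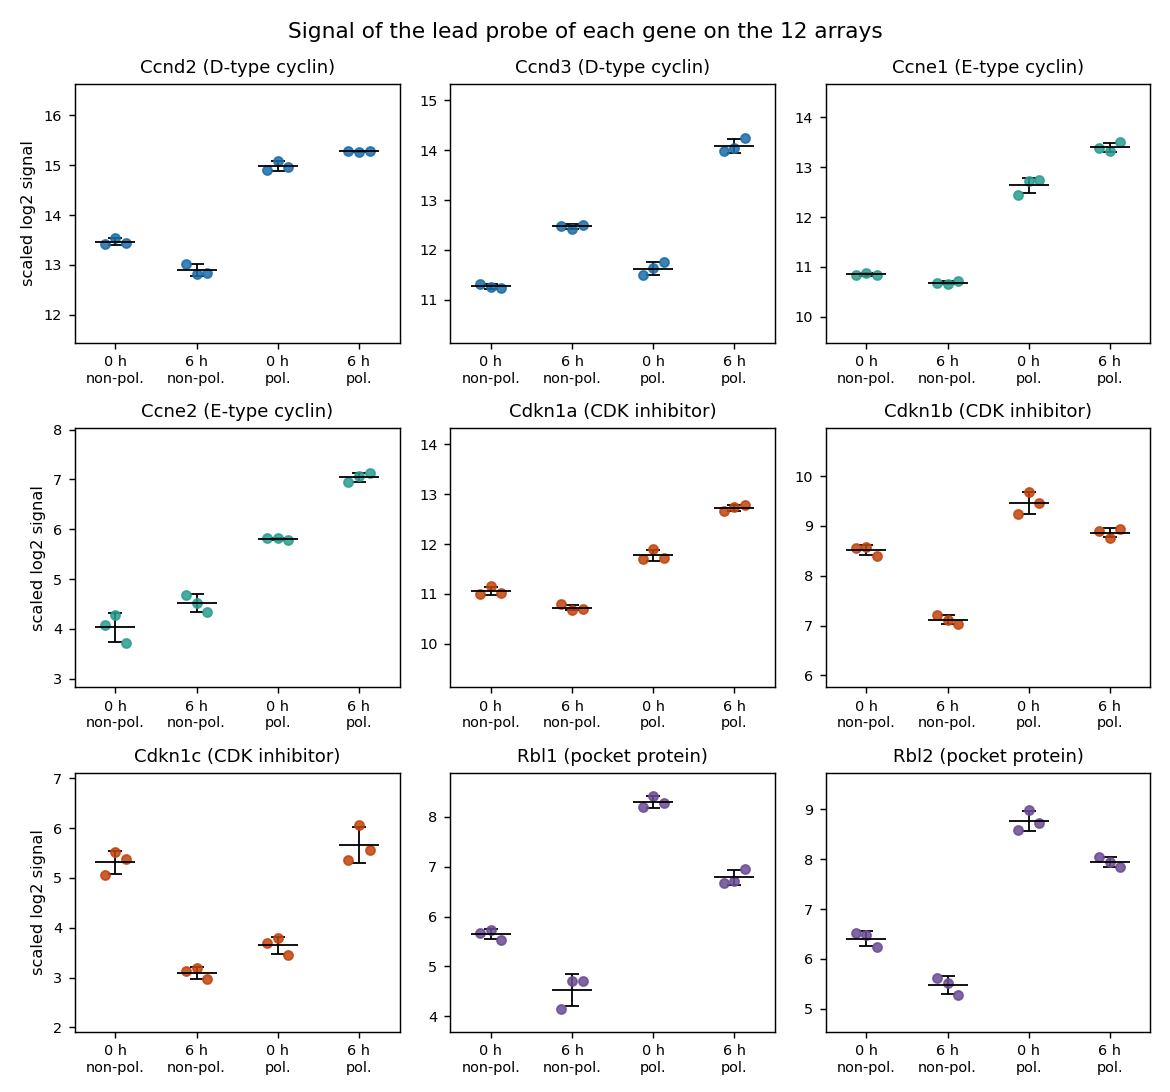
Scaled log2 signal of the lead probe of each of the 9 genes on the 12 arrays, by time (0 h, 6 h) and fraction (non-pol., non-polysomal; pol., polysomal). Points are arrays, long bars are means of 3 replicates and error bars are SD. Every panel spans the same number of log2 units, and levels of different probes are not comparable. Ccnd3 was highest in polysomal RNA at 6 h (mean 14.09), and Cdkn1c was the gene whose 0 h non-polysomal level (5.32) lay above its 0 h polysomal level (3.65).

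Ccnd3, which encodes cyclin D3, had the largest rise in polysomal RNA of the members under the spike-in scaling, and it rose in both fractions. With a line through the spike-ins Cdkn1c rose more, by 2.81 against 2.64, as it did with normexp on all spots, at 2.42 against 2.31, where the change of Cdkn1c was not called. Its probe (transcript NM_007632) read 11.32, 11.26 and 11.23 (scaled log2 signal) in non-polysomal RNA at 0 h and 12.48, 12.42 and 12.51 at 6 h. In polysomal RNA it read 11.49, 11.64 and 11.75 at 0 h and 13.98, 14.05 and 14.25 at 6 h. All 6 h arrays lay above all 0 h arrays in each fraction. The polysomal level rose by 2.46 ± 0.09 (log2 ± SE, 5.52-fold, limma adjusted p = 1.33e-08), and relative to the median of all probes by 1.93. The non-polysomal level rose by 1.20 ± 0.09 (2.30-fold, limma adjusted p = 2.8e-06). Under every scaling tried the polysomal rise was between 1.69 and 2.87 (log2). The non-polysomal rise lost its call with quantile normalization, at 0.93. Under the spike-in scaling the order of the groups was 0 h non-polysomal, 0 h polysomal, 6 h non-polysomal and 6 h polysomal. All neighbours differed (limma adjusted p between 6.57e-08 and 0.00743). Under 75th percentile scaling the 0 h polysomal level lay below the 0 h non-polysomal level instead, with a difference of -0.54. Quantile normalization turned this sign as well.

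RefSeq lists 2 transcription start sites of Ccnd3 on GRCm38.p6, on the plus strand at chr17:47504801-47505050 and chr17:47593217-47593466 for the 250 bases before each. They are shown since Ccnd3 rose in both fractions. For 6 members a window was found, 8 windows in all, and 5 motifs were searched on both strands. These were E2F (TTTNNCGC), the GC box (GGGCGG), the CCAAT box (CCAAT), a forkhead motif (TGTTTAC) and the half-site of the cAMP response element (TGACG). Of all 32851 windows of this length they were found in 4.28%, 32.7%, 33.8%, 3.17% and 17.8%, in that order. Capitals mark the matched letters. Both Ccnd3 windows held the half-site TGACG and the GC box on the reverse strand, the first also the forkhead letters and the second a CCAAT box.
Ccnd3, first start: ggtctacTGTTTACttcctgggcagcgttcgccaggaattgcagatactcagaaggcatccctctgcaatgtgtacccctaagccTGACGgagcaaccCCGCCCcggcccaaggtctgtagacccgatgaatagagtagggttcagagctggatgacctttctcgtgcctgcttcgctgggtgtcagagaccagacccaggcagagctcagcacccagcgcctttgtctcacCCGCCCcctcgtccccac
Ccnd3, second start: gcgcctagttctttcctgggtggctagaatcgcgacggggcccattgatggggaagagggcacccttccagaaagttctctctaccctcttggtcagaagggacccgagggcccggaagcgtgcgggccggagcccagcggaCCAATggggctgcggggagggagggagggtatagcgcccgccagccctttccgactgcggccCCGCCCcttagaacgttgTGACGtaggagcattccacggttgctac

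Ccnd2, which encodes cyclin D2, was not called in either fraction over time under the spike-in scaling. The brightest of its 3 probes (NM_009829) read 13.42, 13.54 and 13.44 in non-polysomal RNA at 0 h and 13.02, 12.82 and 12.84 at 6 h. In polysomal RNA the values were 14.90, 15.08 and 14.97 at 0 h and 15.28, 15.27 and 15.29 at 6 h. The 6 h arrays were thus lower in the one fraction and higher in the other, without overlap. The non-polysomal difference was -0.57 ± 0.08 (log2 ± SE, limma adjusted p = 0.000203) and that of the other probes -0.73 and -0.78. The polysomal difference was 0.30 ± 0.08 (limma adjusted p = 0.00987), but -0.08 (95% interval -0.25 to 0.09) and 0.14 (-0.03 to 0.30) with the other probes, whose groups overlapped. Relative to the median of all probes, each of the 3 probes was lower in polysomal RNA at 6 h, by between 0.24 and 0.61 (log2). The sign of the polysomal difference of the brightest probe turned under 4 scalings, with values down to -0.97 under quantile normalization, where the other probes were called lower, at -1.33 and -1.10.

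Ccne2, which encodes cyclin E2, rose in polysomal RNA, and Ccne1, which encodes cyclin E1, was not called there under the spike-in scaling. The brighter of 2 Ccne2 probes (NM_001037134) read 4.09, 4.28 and 3.72 in non-polysomal RNA at 0 h and 4.69, 4.52 and 4.33 at 6 h. Polysomal RNA gave 5.81, 5.82 and 5.78 at 0 h against 6.94, 7.07 and 7.12 at 6 h. The groups did not overlap in either fraction. The polysomal level rose by 1.24 ± 0.14 (log2 ± SE, 2.36-fold, limma adjusted p = 3.13e-05), and with the other probe by 1.08 ± 0.16 (limma adjusted p = 0.000276). In non-polysomal RNA the differences were 0.49 ± 0.14 and 0.64 ± 0.16, under the 2-fold limit. The call of the brighter probe was lost, at values between 0.76 and 0.91, under 75th percentile scaling, quantile normalization, no scaling, the brighter spike-ins, the deposited values and the normexp correction described with Cdkn1c. For the other probe it was also lost without 0 h polysomal replicate 1 (0.99), without 6 h polysomal replicate 3 (0.97) and without replicate 3 (0.96). Normexp on all spots took the call from both probes, at 2.06 and 2.02 (limma adjusted p = 0.0905 for each).

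Ccne1 (NM_007633, brighter of 2 probes) read 10.84, 10.88 and 10.83 in non-polysomal RNA at 0 h and 10.67, 10.66 and 10.72 at 6 h. Its polysomal values were 12.45, 12.72 and 12.73 at 0 h and 13.38, 13.32 and 13.50 at 6 h. The 6 h arrays were higher than the 0 h arrays in polysomal RNA and slightly lower in non-polysomal RNA, without overlap in either. The polysomal difference was 0.77 ± 0.09 (log2 ± SE, 1.70-fold, limma adjusted p = 3.8e-05) and 0.58 ± 0.08 with the dimmer probe, close to the median of all probes. In non-polysomal RNA the difference was -0.16 (95% interval -0.36 to 0.04, limma adjusted p = 0.196). Quantile normalization turned the sign of the polysomal difference, to -0.13, while probe 1 was called higher with the dimmer spike-ins, at 1.17, and probe 2 with a line through the spike-ins, at 1.09.

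The 250 bases before the start of Ccne1 (RefSeq, GRCm38.p6, minus strand, chr7:38107491-38107740) are shown for their GC boxes, 3 in the forward and 1 in the reverse direction, in a window of 76% G and C where the median of all windows was 52.4%. None of the other letters searched was found in it.
Ccne1: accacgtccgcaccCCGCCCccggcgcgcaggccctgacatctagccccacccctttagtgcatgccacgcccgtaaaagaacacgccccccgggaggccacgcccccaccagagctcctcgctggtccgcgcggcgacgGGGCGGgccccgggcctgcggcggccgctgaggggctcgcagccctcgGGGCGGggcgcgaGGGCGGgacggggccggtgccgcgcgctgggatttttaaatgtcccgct

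**Figure D2:**
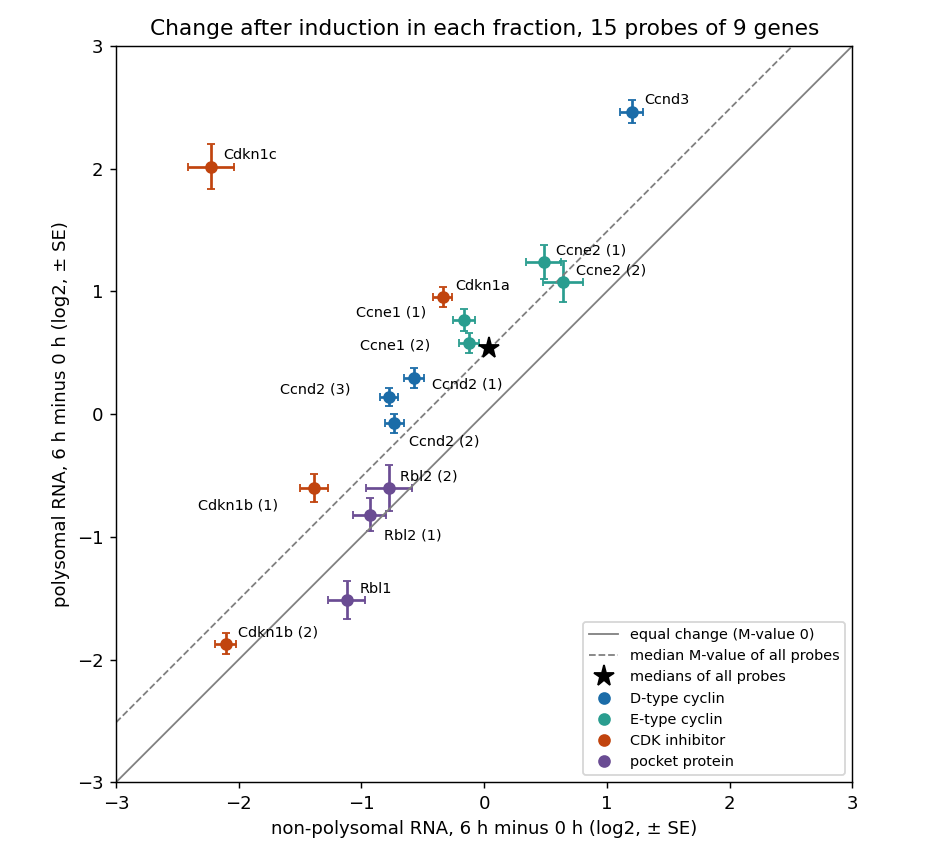
Change from 0 h to 6 h (log2, ± SE) in non-polysomal RNA (x axis) and polysomal RNA (y axis) of the 15 probes, colored by role. Numbers in parentheses are probes of a gene, 1 being the lead probe. The solid line marks equal change, the dashed line the median M-value of all probes (0.49) and the star their median changes. Cdkn1c lies alone at the upper left, with -2.23 and 2.02, and the pocket proteins lie close to the line of equal change.

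Cdkn1c, which encodes the CDK inhibitor p57, went in opposite directions in the fractions. Its only probe (NM_009876) read 5.06, 5.52 and 5.38 in non-polysomal RNA at 0 h and 3.12, 3.19 and 2.96 at 6 h. The polysomal values were 3.69, 3.79 and 3.45 at 0 h and 5.37, 6.06 and 5.56 at 6 h. In each fraction the time points were apart without overlap. Non-polysomal RNA fell by 2.23 on the log2 scale (SE 0.19, limma adjusted p = 4.89e-06) and polysomal RNA rose by 2.02 ± 0.19 (4.05-fold, limma adjusted p = 6.63e-06). At 0 h the polysomal level was 1.67 below the non-polysomal level, a log2 difference of -1.67 ± 0.19 (limma adjusted p = 1.74e-05), and at 6 h it was 2.57 ± 0.19 above it (limma adjusted p = 4.54e-07). The outer groups, 0 h non-polysomal and 6 h polysomal, overlapped and differed by 0.34 (95% interval -0.07 to 0.76, limma adjusted p = 0.125).

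The signal of Cdkn1c was low, near the median of all probes on an array (4.10 to 4.83), and at 6 h only 1 of 3 non-polysomal arrays had it well above background. With values not well above background raised to the lowest signal that was, the non-polysomal change was -2.18. Without background subtraction, in the deposited log2 values, the changes were -0.93 in non-polysomal and 1.16 in polysomal RNA, and after normexp correction fitted without spots of non-uniform background they were -0.55 and 0.92. Each of these kept the opposite directions. On the 3 slides, each of which held 1 array of every group, the non-polysomal change was -1.94, -2.32 and -2.41 and the polysomal change 1.68, 2.27 and 2.11.

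Cdkn1b, which encodes p27, was called lower in non-polysomal RNA with both of its probes and in polysomal RNA with 1, under the spike-in scaling. Its lead probe (NM_009875) read 8.55, 8.58 and 8.39 in non-polysomal RNA at 0 h and 7.21, 7.12 and 7.04 at 6 h. In polysomal RNA it read 9.25, 9.69 and 9.47 against 8.89, 8.77 and 8.94. The 6 h arrays were lower in both fractions without overlap. The non-polysomal level fell by 1.39 on the log2 scale (SE 0.11, limma adjusted p = 4.42e-06), and the polysomal difference of -0.60 ± 0.11 (limma adjusted p = 0.00124) was under the 2-fold limit. Relative to the median of all probes the polysomal difference was -1.14. It was called under 75th percentile scaling, quantile normalization, no scaling and the brighter spike-ins, at values between -1.08 and -1.01. With a line through the spike-ins it was -0.10 and with the dimmer spike-ins -0.20 (limma adjusted p = 0.323 and 0.0784).

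The dimmer Cdkn1b probe, printed on 10 spots of each array, gave larger changes. It read 6.42, 6.45 and 6.35 in non-polysomal RNA at 0 h and 4.41, 4.26 and 4.24 at 6 h, and 7.84, 8.06 and 7.99 against 6.14, 5.98 and 6.15 in polysomal RNA. Here the level fell by 2.10 on the log2 scale in non-polysomal RNA (SE 0.09, limma adjusted p = 4.74e-08) and by 1.87 in polysomal RNA (SE 0.09, limma adjusted p = 4.56e-08). On the 3 slides its polysomal change was 1.34, 1.16 and 1.31 below that of the lead probe, a mean difference of -1.27 ± 0.10 (SD, n = 3). Both probes carry the same accession, and which parts of the transcript they read was not analysed here. In the deposited values the polysomal change of the dimmer probe was -1.37 and that of the lead probe -0.54.

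The promoter window of Cdkn1b (RefSeq, GRCm38.p6, plus strand, chr6:134920151-134920400) is shown as that of the CDK inhibitor that fell in both fractions. It held a pair of CCAAT boxes and 1 GC box, and neither the E2F nor the forkhead letters.
Cdkn1b: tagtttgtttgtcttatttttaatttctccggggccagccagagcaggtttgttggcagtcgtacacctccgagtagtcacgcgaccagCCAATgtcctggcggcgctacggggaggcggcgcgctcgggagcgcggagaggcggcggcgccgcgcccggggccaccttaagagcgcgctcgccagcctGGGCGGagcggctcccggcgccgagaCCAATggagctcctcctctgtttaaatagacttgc

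Cdkn1a, which encodes p21 and is a textbook target of p53, was higher in polysomal RNA at 6 h, just under the 2-fold limit, and slightly lower in non-polysomal RNA. Its probe (NM_007669, 10 spots) read 11.01, 11.16 and 11.03 in non-polysomal RNA at 0 h and 10.79, 10.69 and 10.70 at 6 h. The polysomal values were 11.70, 11.90 and 11.73 against 12.67, 12.74 and 12.78. No group overlapped another in either comparison. The polysomal difference was 0.95 ± 0.08 (log2 ± SE, 1.94-fold, limma adjusted p = 3.05e-06), of which 0.42 was above the median of all probes. The non-polysomal difference was -0.34 ± 0.08 (limma adjusted p = 0.00584). The polysomal difference passed the limit without 0 h polysomal replicate 2, at 1.01, with a line through the spike-ins, at 1.20, and with the dimmer spike-ins, at 1.36. It was between 0.47 and 0.55 under 75th percentile scaling, no scaling and the brighter spike-ins, and 0.18 under quantile normalization.

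The pocket proteins were lower at 6 h in both fractions. Rbl1 (NM_011249), which encodes p107, read 5.67, 5.73 and 5.54 in non-polysomal RNA at 0 h and 4.15, 4.71 and 4.70 at 6 h. In polysomal RNA it read 8.20, 8.42 and 8.28 at 0 h and 6.68, 6.71 and 6.96 at 6 h. Every 6 h array was below every 0 h array of its fraction. Polysomal Rbl1 fell by 1.52 on the log2 scale (SE 0.15, limma adjusted p = 1.32e-05), which is 2.86-fold, and non-polysomal Rbl1 by 1.12 (SE 0.15, limma adjusted p = 0.000167). The polysomal call was lost when a line was fitted through the spike-ins, at -0.88, and after normexp correction without spots of non-uniform background, at -0.99. The non-polysomal call was lost without 6 h non-polysomal replicate 1, at -0.94, without replicate 1, at -0.92, and in the deposited values, at -0.59. It was also lost after normexp correction without spots of non-uniform background, at -0.32, and on all spots, at -1.31 (limma adjusted p = 0.395). A normexp correction fitted on all spots, under which the M-value of all probes had a median of 3.20, turned the polysomal sign to 0.25.

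Rbl2 (NM_011250, brighter of 2 probes), which encodes p130, read 6.52, 6.48 and 6.23 in non-polysomal RNA at 0 h and 5.62, 5.52 and 5.28 at 6 h. The polysomal values were 8.59, 8.99 and 8.72 against 8.05, 7.95 and 7.84. Again the time points were apart in each fraction. The differences were -0.93 ± 0.13 (log2 ± SE, limma adjusted p = 0.000219) in non-polysomal and -0.82 ± 0.13 (limma adjusted p = 0.000423) in polysomal RNA, both under the 2-fold limit. Relative to the median of all probes the polysomal difference was -1.36. Its second probe gave -0.78 and -0.60, and at 6 h was well above background on 1 of 3 non-polysomal arrays. Under 75th percentile scaling, quantile normalization, no scaling and the brighter spike-ins the polysomal fall of the first probe was called, at values between -1.30 and -1.17. With a line through the spike-ins it was -0.25 (limma adjusted p = 0.0669) and with the dimmer spike-ins -0.42. Normexp on all spots turned it to 0.40. The second probe had 0.13 with the line and -0.20 with the dimmer spike-ins (limma adjusted p = 0.498 and 0.314).

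The promoter windows of both pocket protein genes are shown, since they were lower together (RefSeq, GRCm38.p6, Rbl1 on the minus strand at chr2:157204535-157204784, Rbl2 on the plus strand at chr8:91069807-91070056). The Rbl1 window held the E2F letters TTTNNCGC at 2 places, beginning 18 and 8 bases before the start, and 1 GC box on the reverse strand. The Rbl2 window held none of the 5 motifs.
Rbl1: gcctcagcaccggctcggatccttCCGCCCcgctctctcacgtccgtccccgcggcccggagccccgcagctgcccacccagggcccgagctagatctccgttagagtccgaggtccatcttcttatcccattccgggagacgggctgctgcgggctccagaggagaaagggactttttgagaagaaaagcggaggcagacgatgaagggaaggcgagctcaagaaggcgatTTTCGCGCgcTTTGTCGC
Rbl2: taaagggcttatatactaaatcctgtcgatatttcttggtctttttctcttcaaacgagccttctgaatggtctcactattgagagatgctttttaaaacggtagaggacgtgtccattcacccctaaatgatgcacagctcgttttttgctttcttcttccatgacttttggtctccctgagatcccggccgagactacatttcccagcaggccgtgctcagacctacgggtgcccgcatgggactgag

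The difference between the fractions compares the level of a transcript in the polysomal and the non-polysomal pool, read per amount of RNA in each pool. At 0 h 11 of the 15 probes were called higher in polysomal than in non-polysomal RNA, 73.3% beside 27.4% of all probes, and 1 was called lower, 6.67% beside 9.81%. The probe called lower was that of Cdkn1c. The fractions did not overlap for any of the 15 probes at 0 h, beside 54.9% of all probes without overlap, nor at 6 h, beside 78%. Rbl1 had the largest difference, 2.65 ± 0.15 (log2 ± SE, 6.29-fold, limma adjusted p = 9.23e-08), before Rbl2 with 2.57 and 2.36. Ccne2 followed with 2.19 and 1.78, Ccne1 with 1.80 and 1.78 and Ccnd2 with between 1.52 and 1.75. Ccnd3 at 0.36 ± 0.09, Cdkn1a at 0.71 ± 0.08 and the lead probe of Cdkn1b at 0.96 ± 0.11 were under the 2-fold limit. Under 75th percentile scaling, which moved the median of all probes from 0.15 to -0.74, 4 probes were called higher and 1 lower, beside 11.5% and 26.8% of all probes, and Ccnd3 and Cdkn1a turned to -0.54 and -0.19.

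At 6 h all 15 probes were called higher in polysomal RNA, 100% beside 37.4% of all probes, with differences between 1.62 (Ccnd3) and 2.74 (Rbl2, second probe). Under 75th percentile scaling 10 were called, beside 12% of all probes, and under quantile normalization 12, beside 15.6%. Calls lost under the former were Ccnd3 at 0.28, both Cdkn1b probes at 0.41 and 0.45, Cdkn1a at 0.66 and Rbl1 at 0.92. None was called lower, beside 6.41% of all probes, and limma gave 0 probes lower at an unadjusted p under 0.05. The probes were thus closer to each other than at 0 h, when they had run from -1.67 to 2.65. Ccnd3 went from 0.36 to 1.62 and Cdkn1a from 0.71 to 2.00, while Rbl1 had 2.65 at 0 h and 2.26 at 6 h.

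**Figure D3:**
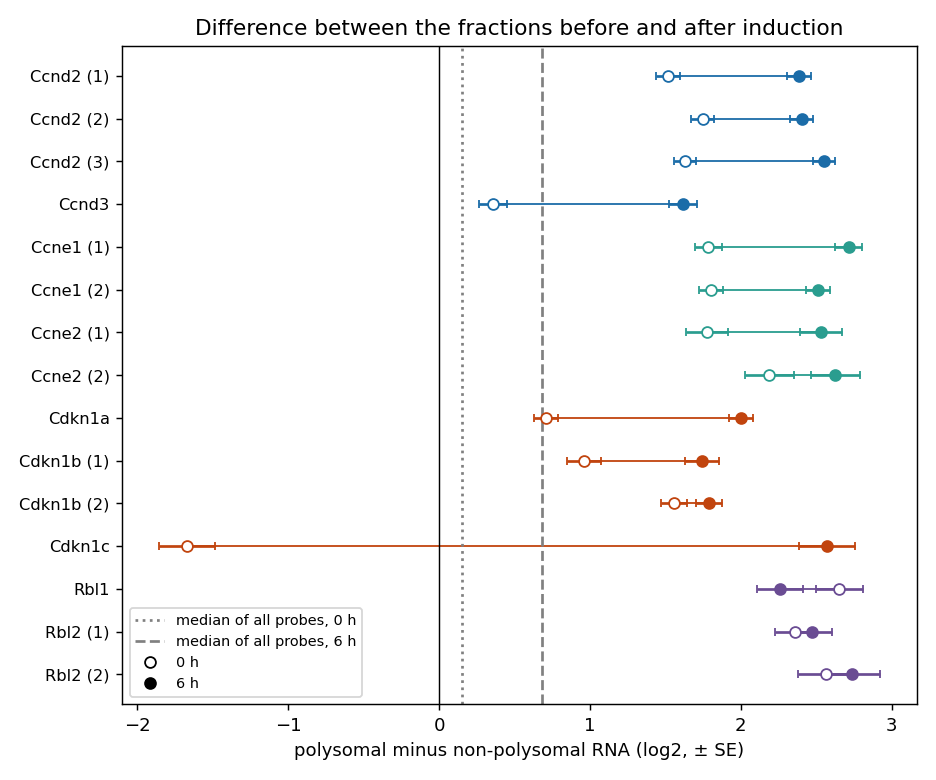
Polysomal minus non-polysomal RNA (log2, ± SE) of the 15 probes at 0 h (open) and 6 h (filled), with the medians of all probes as dotted (0 h, 0.15) and dashed (6 h, 0.68) lines. All filled points lie right of the dashed line, and Cdkn1c is the one probe with its open point left of 0.

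The M-value is the change in polysomal RNA minus the change in non-polysomal RNA and tests whether the fractions changed unequally. Its median over all probes was 0.49. Called higher were 3 of 15 probes, 20% beside 12.1% of all probes, and none was called lower, beside 1.31%. The limma fit gave 0 probes with a negative M-value at an unadjusted p under 0.05. Cdkn1c had 4.24 ± 0.26 (log2 ± SE, limma adjusted p = 4.09e-06), with 3.62, 4.59 and 4.52 on the 3 slides. Cdkn1a had 1.29 ± 0.11 (limma adjusted p = 2.73e-05) and Ccnd3 had 1.26 ± 0.13 (limma adjusted p = 7.61e-05). Of these, Ccnd3 and Cdkn1a went below the 2-fold limit, at values between 0.66 and 0.85, under 75th percentile scaling, quantile normalization, no scaling and the brighter spike-ins. The M-value of Cdkn1c stayed above 1 under every alternative, between 1.47 and 5.23, although its adjusted p was 0.0732 after normexp correction fitted on all spots. It was 2.09 in the deposited values.

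For the other members the M-values lay between -0.39 and 0.93. The 3 probes of Ccnd2 had 0.87, 0.66 and 0.92 and those of Ccne1 0.93 and 0.71, with limma adjusted p between 0.000129 and 0.00104. Under quantile normalization those of Ccnd2 were below 0, from -0.38 to -0.11. The pocket proteins had the lowest values. Rbl1 had -0.39 (95% interval -0.88 to 0.09, limma adjusted p = 0.166) and Rbl2 0.11 (-0.31 to 0.53) and 0.17 (-0.42 to 0.76). Relative to the median of all probes Rbl1 was at -0.88, and between -1.14 and -0.61 under the 8 scalings. Those of Cdkn1b differed between its probes, with 0.78 ± 0.16 and 0.23 ± 0.12.

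**Figure D4:**
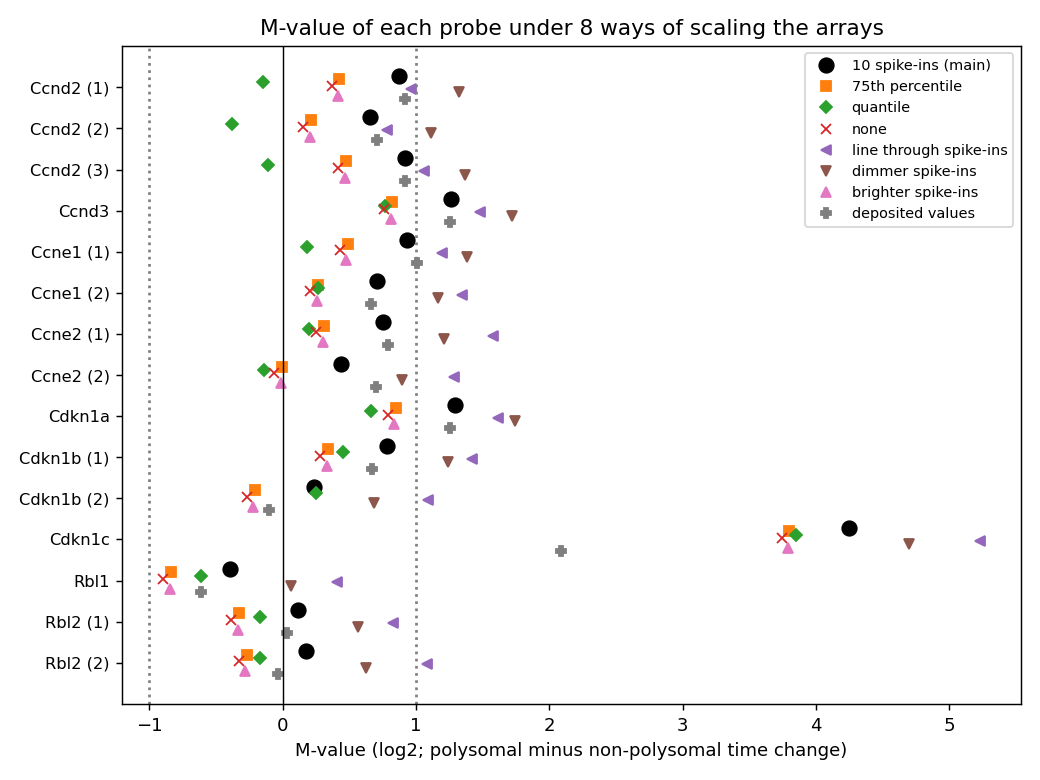
M-value (log2) of each of the 15 probes under 8 ways of scaling the arrays, the large black points being the spike-in scaling used in the text. The dotted lines mark the 2-fold limit on either side. Cdkn1c lies right of the limit under every scaling shown, between 2.09 and 5.23. The remaining probes move with the scaling by unequal amounts. Quantile normalization took Ccnd2 probe 1 from 0.87 to -0.15 and Cdkn1b probe 2 from 0.23 to 0.25.

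Genes acting beside these regulators were taken from 3 lists. The first held G1/S partners (CDKs, INK4 inhibitors, E2F and DP factors and subunits of the DREAM complex), with 42 probes for 29 of 30 genes. In polysomal RNA 10 probes were called higher at 6 h, 23.8% beside 19.2% of all probes, and 7 lower, 16.7% beside 5.01%, with a median of 0.46 beside 0.54 for all probes. In non-polysomal RNA 6 were called higher, 14.3% beside 8.09%, and 11 lower, 26.2% beside 8.14%, with a median of -0.21 beside 0.04. Cdk6, a partner of the D-type cyclins, rose in polysomal RNA by 2.36 ± 0.19 (log2 ± SE, limma adjusted p = 2.16e-06) with one probe and by 1.86 with the other. E2f4 and E2f5, E2F factors that bind pocket proteins in resting cells, rose by 1.91 ± 0.10 and 1.84 ± 0.10. Rb1, the pocket protein pRB, fell by 1.99 on the log2 scale with the brighter of its probes (SE 0.08, limma adjusted p = 1.48e-08) and by 2.37 with the dimmer one, which was well above background on 5 of 12 arrays. E2f1, an activating E2F, fell by 1.44 and E2f7, a repressing one, by 1.24. The INK4 inhibitor genes Cdkn2a, Cdkn2b and Cdkn2c, named after their values were seen, fell in non-polysomal RNA by 1.57, 2.38 and 1.12. Cdkn2d had -0.80 there, under the 2-fold limit. In polysomal RNA Cdkn2a, Cdkn2b, Cdkn2c and Cdkn2d had -0.69, -0.93, -0.48 and 0.04, and none was called.

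The list of S and M phase genes had more probes called lower than higher. Of 22 probes for 15 of 16 genes, 7 were called lower in polysomal RNA at 6 h, 31.8% beside 5.01% of all probes, and 1 higher, 4.55% beside 19.2%, with a median of -0.87. In non-polysomal RNA 15 were called lower, 68.2% beside 8.14%, and 0 higher, beside 8.09%, with a median of -1.38. At an unadjusted p under 0.05, 1 of them was higher there in the limma fit. Mki67, the proliferation marker Ki-67, fell by 2.72 on the log2 scale in polysomal RNA (SE 0.09, limma adjusted p = 8.28e-09), Top2a, a topoisomerase of dividing cells, changed by -2.12 with a probe well above background on 6 of 12 arrays and by -1.78 with the other, and Ccnb2, a mitotic cyclin, by -1.88. The probe called higher was that of Pcna, the sliding clamp of DNA replication, with 1.07 ± 0.08 (limma adjusted p = 1.16e-06).

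The third list held p53 target genes, to which Cdkn1a belongs, with 19 probes for 12 genes. In polysomal RNA 2 probes were called higher, 10.5% beside 19.2% of all probes, and 3 lower, 15.8% beside 5.01%, with a median of 0.20. In non-polysomal RNA 0 were called higher, beside 8.09%, and 3 lower, 15.8% beside 8.14%, with a median of -0.30, where limma gave 0 higher also at an unadjusted p under 0.05. Btg2, an antiproliferative gene, rose by 1.23 ± 0.11 with one of its 3 probes (0.89 and 0.66 with the others, under the 2-fold limit) and Zmat3 by 1.17 ± 0.10 in polysomal RNA. Bbc3, which encodes the pro-apoptotic PUMA, fell by 2.59 there, Gadd45a by 1.68 and Trp53inp1 by 1.07 with one probe, the other having -0.99.

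Patterns over the 12 arrays were compared by Pearson's r for the members that rose and fell most in polysomal RNA among lead probes well above background on every array, against 16585 such probes with a gene symbol. Most like Ccnd3 were Dusp14, Tsc22d3, a known target of glucocorticoids, and Ap1s2, each with r = 0.998. Their polysomal levels rose by 3.51, 3.85 and 2.50 (log2). Most like Rbl1 were Tnip2, Shcbp1 and Fer, with r between 0.995 and 0.996, which fell by 1.06, 1.84 and 1.44 there. The arrays share their slides and groups, so these values describe likeness only.

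**Figure D5:**
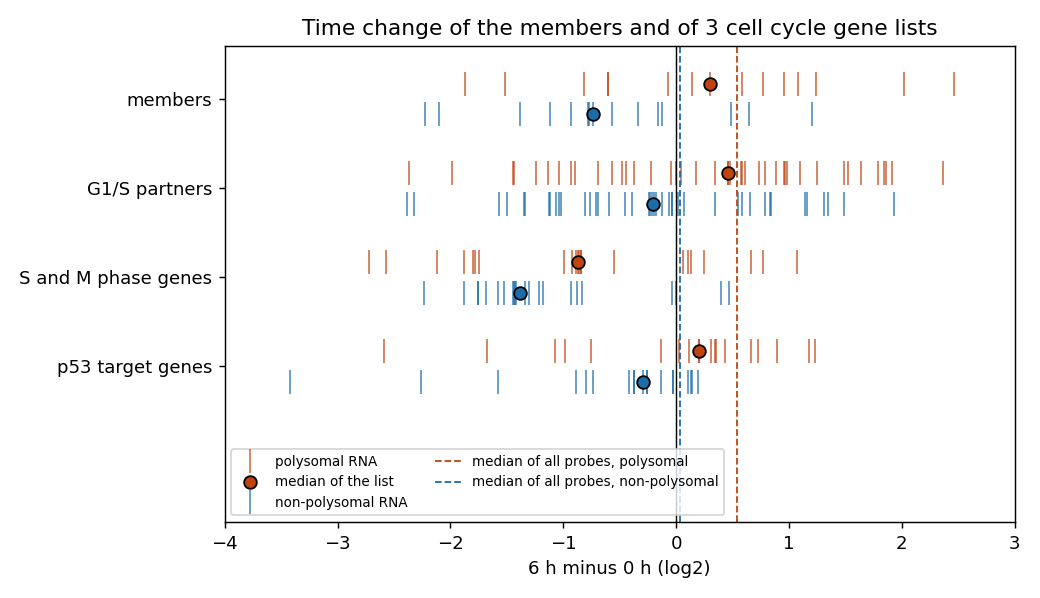
Change from 0 h to 6 h (log2) of the 15 probes of the members and of the probes of the 3 gene lists, in polysomal (red, upper row) and non-polysomal RNA (blue, lower row). Each tick is a probe, circles are medians of a list, and dashed lines are medians of all probes. The S and M phase genes have medians of -0.87 and -1.38, and the members spread from -1.87 to 2.46 in polysomal RNA.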

How the data were processed

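RNA of 3T3-L1 cells at 2 times, in 2 pools of a sucrose gradient, was hybridised to 12 one-color Agilent arrays, with 3 biological replicates a group. The deposited intensity values are processed signals of the authors' scanner software (Feature Extraction 10.7.1.1 per the file headers), background-subtracted and detrended. The deposited log2 values hold the authors' median pixel signal, not background-subtracted, averaged per probe, plus 1 constant for each array. No deposited column lacked a sample (0). From the intensities, spots marked as outliers were left out, spots of a probe were averaged on the log2 scale, and each array was shifted by the mean of 10 spike-in transcripts. The 4 groups were fitted together in limma 3.58.1 (R 4.3.3), with Benjamini-Hochberg adjustment over all 41174 probes and calls at an adjusted p below 0.05 and more than 2-fold. The script was tested on simulated data. The number of arrays limits the precision.

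All members were named, the brightest probe of a gene being its lead probe, and from each list the genes with the 3 largest called changes in each direction in polysomal RNA. The members and lists were chosen with earlier results of these data known. Alternatives were 8 scalings, counting the one used, normexp correction of median signals, filters, other variance models, the replicate block, and leaving out arrays. Of these, normexp without spots of non-uniform background and a floor for dim values were added after the data were seen.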

Additional observations from a re-analysis of the deposited data

Results flagged for a closer look

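The change between the times differed between polysomal and non-polysomal RNA by more than 2-fold for 3 genes, by limma's test of the difference itself with Benjamini-Hochberg adjustment. Without the 2-fold limit, 10 of 15 probes of 7 genes had an adjusted p below 0.05, beside 14849 of 41155 probes on the arrays. For Cdkn1c the M-value was 4.24 (adjusted p = 4.09e-06), with the fractions moving in opposite directions on all 3 slides. For Cdkn1a it was 1.29 (adjusted p = 2.73e-05) and for Ccnd3 1.26 (adjusted p = 7.61e-05). The median M-value of all probes was 0.49, so 0.80 of the value of Cdkn1a, 0.77 of that of Ccnd3 and 3.76 of that of Cdkn1c lay above it. Under the 8 scalings the part above the median ran from 0.19 to 0.80 for Cdkn1a and from 0.05 to 0.77 for Ccnd3. For Cdkn1c it ran from 1.57 to 3.85.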

How the results depend on the processing

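Of 2175 values of single probes under the alternatives, 2002 kept their direction and side of the threshold, 80 lost and 41 gained a call and 52 turned their sign. The settings differed in this. Other scalings and background corrections kept between 42 (normexp on all spots) and 66 (deposited values) of 75 values each. Leaving out arrays kept 72 to 75, and the filters, the outlier spots, the floor, the variance trend and the replicate block kept all 75. Probes called higher in polysomal RNA over time (4) numbered 2 under 75th percentile scaling, quantile normalization, no scaling, brighter spike-ins and deposited values. There between 7.78% and 13.3% of all probes were called higher. They numbered 1 under both normexp corrections, beside 8.04% of all probes with all spots and 11.6% without spots of non-uniform background. With the dimmer spike-ins and a line through the spike-ins they numbered 6, beside 37.1% and 64.1% of all probes. Those called lower (2) numbered 5 under 75th percentile scaling, no scaling and the brighter spike-ins, beside 8.83% to 9.84% of all probes. Quantile normalization gave 6 lower, beside 9.33%. A line through the spike-ins and normexp without spots of non-uniform background gave 1 each, beside 1.91% and 1.63%. Normexp on all spots gave 0, beside 0.357%. In non-polysomal RNA quantile normalization left 0 higher (1), beside 8.15% of all probes. In that fraction 2, 1 and 0 were lower (4) with the deposited values, normexp without such spots and normexp on all spots. Of all probes 3.95%, 2.74% and 1.64% were lower, in that order. M-values called higher (3) numbered 1 under 75th percentile, quantile, no scaling and brighter spike-ins, beside 2.89% to 3.59% of all probes. They numbered 11 with the line and 10 with the dimmer spike-ins, beside 63.5% and 36.5% of all probes. Normexp on all spots gave 0, beside 0.245%. At 0 h 4 were higher in polysomal RNA (11) under 75th percentile scaling and normexp on all spots, beside 11.5% and 8.54%. With the deposited values and both normexp corrections 0 were lower (1), beside 3.8% to 5.81% of all probes. At 6 h normexp on all spots gave 9 higher (15), 75th percentile scaling 10, and quantile normalization and the other normexp 12. Of all probes 22.4%, 12%, 15.6% and 25% were higher there, in that order. The cause was not tested.

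Leaving out arrays, polysomal calls over time ran from 3 to 5 higher with 2 lower. Of all probes 17.3% to 20% were higher and 4.48% to 5.4% lower. Non-polysomal calls ran from 3 to 5 lower with 1 higher, beside 7.27% to 8.8% and 7.39% to 8.58%. M-values were called higher for 3 to 4 probes and lower for 0, beside 9.67% to 13% and 1.12% to 1.41%. Calls at 0 h were 11 to 12 higher with 1 lower, beside 26.5% to 28.2% and 9.3% to 10.4%. At 6 h they were 15 higher and 0 lower, beside 36.2% to 37.6% and 6.1% to 6.51%. The replicate block, which is also the slide, changed no call of a member. In polysomal RNA 4 were higher and 2 lower, beside 19.2% and 4.99% of all probes. The M-value of Cdkn1c stayed at 4.24 (limma adjusted p = 3.53e-05). Whether the replicate numbers pair the samples was not settled. Correlations of deviations between arrays of the same number ran from -0.10 to 0.42, with a median of 0.07, and 4 of 18 exceeded 0.1.

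Signs turned as follows (log2), probes numbered from the brightest. Under 75th percentile scaling, quantile normalization, no scaling and the brighter spike-ins, in that order, the polysomal change was -0.18, -0.97, -0.18 and -0.11 for Ccnd2 probe 1 and -0.34, -1.10, -0.34 and -0.27 for probe 3. The M-value there was -0.0058, -0.14, -0.064 and -0.016 for Ccne2 probe 2, -0.33, -0.17, -0.39 and -0.34 for Rbl2 probe 1 and -0.27, -0.17, -0.33 and -0.28 for its probe 2. For Cdkn1b probe 2 it was -0.21 under 75th percentile scaling, -0.27 with no scaling, -0.22 with the brighter spike-ins, -0.10 with the deposited values and -0.20 with normexp without spots of non-uniform background. Quantile normalization also turned the polysomal change of Ccne1 probe 1 (-0.13) and the M-values of Ccnd2 (-0.15, -0.38 and -0.11). The difference between fractions at 0 h was -0.54 and -0.45 for Ccnd3 and -0.19 and -0.083 for Cdkn1a under the 75th percentile and quantile. A line through the spike-ins turned the polysomal change of Rbl2 probe 2 (0.13) and the M-value of Rbl1 (0.41), and the dimmer spike-ins turned the latter (0.059) and the polysomal change of Ccnd2 probe 2 (0.33). Rbl2 M-values were -0.034 for probe 2 with the deposited values, -0.075 for probe 1 with normexp without such spots and between -0.0078 (without replicate 1) and 0.23 for probe 1 when arrays were left out. Normexp on all spots turned the polysomal changes of Ccnd2 probe 3 (-0.043), Cdkn1b (0.14 and 0.39), Rbl1 (0.25) and Rbl2 (0.40 and 1.5001), the non-polysomal changes of Ccne2 (-1.09 and -1.05), the M-value of Rbl1 (1.56) and the difference at 0 h for Ccne2 (-0.62 and -0.57) and Rbl2 probe 2 (-0.25).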

Other observations

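Most probes of S and M phase genes were higher in polysomal than in non-polysomal RNA at both times. At 0 h 16 of 22 probes were called higher there, 72.7% beside 27.4% of all probes, with a median difference of 2.02 beside 0.15 (log2), and at 6 h 15 of 22, 68.2% beside 37.4%, with a median of 2.39 beside 0.68. Not called at either time were Birc5, Foxm1, both probes of Mki67 and a probe each of Bub1 and Cdk1. At 0 h Birc5, Foxm1 and these Bub1 and Cdk1 probes had -0.21, -0.26, 0.08 and -0.19. At 6 h they had 0.12, 0.54, 0.75 and 0.61. The dimmer probe of Mki67 had differences of 0.66 at 0 h and -0.64 at 6 h. Its M-value was -1.30 (log2, limma adjusted p = 6.95e-05 with Benjamini-Hochberg adjustment). Of the p53 target genes, Btg2 had M-values of 1.49, 1.15 and 1.03 with its 3 probes and Zmat3 one of 1.30, beside 1.29 for Cdkn1a. E2f1 had -1.41 and -0.84 with its probes, the former called lower.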
